A study of Mus musculus with 8 samples.

Results

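The genes described here are 8 transcription factor genes that drive the formation of fat cells: Pparg, Cebpa, Cebpb, Cebpd, Zfp423, Ebf1, Klf5 and Klf15. They were chosen by name as a list, and they are 8 of the 21631 protein-coding genes in the gene table used. Chromatin immunoprecipitation sequencing had been done on mesenchymal stem and progenitor cells, the adherent stromal cells of mouse bone marrow that can become bone, cartilage or fat cells, with wild-type and Asxl1-/- cells compared. All cells were C57BL/6 and were grown in MesenCult medium to passages 5 to 10. The antibodies were against the chromatin regulator ASXL1 in wild type alone, and against 3 methylated forms of histone H3 (H3K4me2, H3K4me3, H3K27me3) in cells of both genotypes. Each of these 7 groups is 1 library, so no difference between the genotypes has a replicate check, no test was possible, and each value describes the library it comes from. The labels give neither the construction of the Asxl1 allele nor the number of mice behind a culture.

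Fat cell formation runs as a cascade. C/EBP-beta and C/EBP-delta act early and help switch on Pparg, the nuclear receptor that is the central regulator of the adipocyte state, and Cebpa, with which it keeps itself and the fat cell genes on. Zfp423 and Ebf1 code for zinc finger and helix-loop-helix factors that commit stromal cells to the preadipocyte state, and the Krüppel-like factors KLF5 and KLF15 act on the Pparg promoter. In bone marrow the same stromal cells give rise to osteoblasts, so this cascade is one arm of a choice of fate. H3K4me3 lies at active or poised promoters, H3K4me2 at promoters and enhancers, and H3K27me3 on genes held silent by Polycomb. ASXL1 is the partner of the deubiquitinase BAP1, which removes ubiquitin from histone H2A.

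The data are lists of islands, which are the stretches of the genome that the peak caller found enriched in a library. A list gives the position of an island and no read count or score, so the depth behind a value is unknown and a weaker library would show fewer or narrower islands. For each gene the islands over the gene and 20 kb either side were taken, and the length they cover was summed. The lists held from 15276 to 36046 islands on the autosomes and the X chromosome. The labelled cell type was checked on marker genes. H3K4me3 lay at the start of 11 of 12 stromal marker genes in wild-type cells and 10 of 12 in Asxl1-/-, with Pdgfra, Pdgfrb, Prrx1 and Col1a1 marked in both. It lay at 1 of 10 blood cell markers in both genotypes, Spi1, and the pan-leukocyte gene Ptprc had none. It lay at 2 of 8 endothelial markers in wild type, Kdr and Erg, and at 1 in Asxl1-/-. Over all protein-coding genes H3K4me3 lay at a start of 59.3% in wild type and 58.8% in Asxl1-/-. Lepr, which marks fat-forming stromal cells in marrow, had no H3K4me3 in either genotype, and H3K4me2 in Asxl1-/- alone. At the annotated start Eng lost both H3K4 marks and the endothelial gene Cldn5 lost H3K4me2. Over Eng and 20 kb either side H3K4me2 still covered 29.8 kb in Asxl1-/-, against 33.4 kb in wild type. H3K4me3 covered 24.6 kb there in Asxl1-/- and 19.6 kb in wild type. Over Cldn5 and its flanks H3K4me2 covered 5.0 kb in Asxl1-/- and 8.4 kb in wild type. H3K27me3 at marker starts was lost at Cxcl12, 1 of 2 stromal markers that had it, and at Laptm5, 1 of 5 blood cell markers. Of the 5 endothelial markers that had it, Tek, Tie1 and Cldn5 lost it. Over gene and 20 kb either side it still covered 7.6 kb at Cxcl12, 48.1 kb at Laptm5 and 17.2 kb at Tie1 in Asxl1-/-. In wild type these lengths were 8.6, 59.7 and 26.2 kb, and at Tek and Cldn5 none was left. H3K27me3 was gained at the starts of Thy1, Gata1 and Cdh5, and in wild type it covered 0, 5.0 and 20.7 kb of their windows. Of all protein-coding genes with it at a start 25.6% lost it, and 6.04% of those without it gained it.

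RefSeq promoter sequences of the build GRCm38.p6 were found for 6 of the 8 genes, with 10 annotated starts between them. The 250 bases before the start are printed 5′ to 3′ on the strand of the gene for 5 of these starts, because they show which kinds of start carried the marks. Capitals mark CG dinucleotides, the CpG sites that are dense in the promoters where H3K4me3 is usually found. Cebpa lay at chr7:35119043-35119292 on the + strand, and Klf15 at chr6:90462326-90462575 on the + strand. The first start of Ebf1 lay at chr11:44617850-44618099 on the + strand, and the third start of Pparg at chr6:115421816-115422065 on the + strand. The second start of Zfp423 lay at chr8:87804440-87804689 on the - strand.
Cebpa: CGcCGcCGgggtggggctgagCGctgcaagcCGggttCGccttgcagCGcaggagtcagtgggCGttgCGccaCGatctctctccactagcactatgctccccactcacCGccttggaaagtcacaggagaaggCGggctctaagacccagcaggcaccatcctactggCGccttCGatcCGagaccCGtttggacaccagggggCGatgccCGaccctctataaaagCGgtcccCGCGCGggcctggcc
Klf15: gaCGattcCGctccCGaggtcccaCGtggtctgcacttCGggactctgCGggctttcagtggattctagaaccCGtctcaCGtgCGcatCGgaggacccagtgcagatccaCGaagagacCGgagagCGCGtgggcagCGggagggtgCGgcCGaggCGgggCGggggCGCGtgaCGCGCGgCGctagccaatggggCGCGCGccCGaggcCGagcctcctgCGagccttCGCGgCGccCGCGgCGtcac
Ebf1, the first start: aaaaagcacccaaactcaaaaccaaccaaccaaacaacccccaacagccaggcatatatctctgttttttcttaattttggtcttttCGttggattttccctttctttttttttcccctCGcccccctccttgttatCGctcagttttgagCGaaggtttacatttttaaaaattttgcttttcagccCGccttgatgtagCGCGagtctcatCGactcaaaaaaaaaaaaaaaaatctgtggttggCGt
Pparg, the third start: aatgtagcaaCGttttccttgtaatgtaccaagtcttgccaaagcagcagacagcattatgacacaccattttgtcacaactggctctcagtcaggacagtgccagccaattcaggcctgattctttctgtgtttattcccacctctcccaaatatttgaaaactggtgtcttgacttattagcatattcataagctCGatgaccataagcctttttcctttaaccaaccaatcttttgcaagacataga
Zfp423, the second start: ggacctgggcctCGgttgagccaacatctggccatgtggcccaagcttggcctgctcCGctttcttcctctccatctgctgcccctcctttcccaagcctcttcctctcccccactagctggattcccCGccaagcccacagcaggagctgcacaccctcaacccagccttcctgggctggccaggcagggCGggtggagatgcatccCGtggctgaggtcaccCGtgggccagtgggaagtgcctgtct

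These 5 sequences held 22, 37, 9, 2 and 6 CpG sites, in the order printed, against a median of 6 over 32817 promoters. The sequences of Cebpa, Klf15 and Ebf1 lay wholly inside H3K4me2 and H3K4me3 islands of both genotypes and inside an ASXL1 island. Of these 3, Cebpa was the gene whose sequence was covered by H3K27me3 in wild-type cells and not in Asxl1-/-. Klf15 was covered by H3K27me3 in both, and Ebf1 in neither. The sequence at the third start of Pparg lay in no island of any library. The second start of Zfp423 lay in H3K27me3 islands of both genotypes, and 64% of its sequence was under H3K4me2 in wild-type cells and 0% in Asxl1-/-. Of the 10 member promoters, Cebpb had the most CpG sites, with 41, which 1.09% of all promoters reach. At starts with H3K4me3 in wild type the median was 16 CpG sites over 14654 starts, and at starts without it the median was 3. The first Ebf1 sequence, with 40% G and C, had more CpG sites than the median of all promoters and fewer than that of starts with H3K4me3.

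Letters that some of these factors are known to bind were searched for on both strands of the 10 promoters, and no motif searched contains another. The C/EBP motif TTGCNNAA was found at the third start of Pparg and the first start of Zfp423, and 9.57% of all promoters hold it. The motif GGGCGGG of KLF and SP factors was found in 4 of the 10, those of Cebpb and Klf15, the second start of Pparg and the second start of Zfp423, and 23.4% of all promoters hold it. The palindromic EBF motif and the direct repeat bound by PPAR with RXR were found in 0 of the 10, and 0.780% and 0.0335% of all promoters hold them. The letters TATAAA were found in the promoter of Cebpa and at the second start of Pparg, and 12.4% of promoters hold them.

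All 8 genes carried ASXL1, H3K4me2 and H3K4me3 within 1000 bp of an annotated start, and both H3K4 marks were there in both genotypes. Where no strand was found, for Cebpd and Klf5, either end of the gene was used. Over all protein-coding genes 50% had ASXL1 at a start, 63.6% had H3K4me2 in wild-type cells and 64.6% in Asxl1-/-, and 59.3% and 58.8% had H3K4me3. Among genes with H3K4me3 in wild type 82.4% also had ASXL1, so 8 of 8 stands beside a share that is high for any gene with H3K4me3. H3K4me2 at a start was lost at 0 of the 8 and H3K4me3 at 0 of the 8, beside 2.67% and 4.14% of all genes that had them. Since all 8 had both marks none could gain them, as 7.64% and 4.66% of the other genes did. H3K27me3 was at the start of 3 of the 8 in wild type, Cebpa, Zfp423 and Klf15, and of 2 in Asxl1-/-, Zfp423 and Klf15, against 24% and 22.4% of all genes. The same 3 genes were those with H3K4me3 and H3K27me3 together in wild type, a state that 12.2% of genes showed. In a culture, both marks on the same chromatin and each mark in different cells cannot be told apart, nor can fewer cells with a mark and less of it per cell. Cebpa was the 1 of them that lost H3K27me3 at the start, which 30.5% of genes with both marks did and 25.6% of all genes with H3K27me3 did. None of the other 5 gained it, beside 6.04% of genes. Pparg, Cebpb, Cebpd, Ebf1 and Klf5 shared their state in all 7 libraries with 8983 genes, or 41.5% of all. The state of Zfp423 and Klf15 was that of 641 genes, and the state of Cebpa that of 524.

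Summed over gene and flanks, 4 of the 8 genes differed between genotypes by a fold of 1.5 in both H3K4 marks and 4 in neither. The covered length of H3K4me2 was at least 1.5 times as long in Asxl1-/- at Cebpa, Ebf1 and Klf15, beside 11.8% of the genes with at least 2000 bp covered in either genotype, and shorter by that fold at Zfp423, beside 17.9%. For H3K4me3 the same 3 genes were above the fold, beside 16.3%, and the same 1 was below it, beside 8.32%. Over the genes alone, without flanks, Cebpa and Klf15 passed the fold for neither H3K4 mark. At Cebpa this window could not show the fold, since wild type already covered 2.31 and 2.11 kb of the 2.64 kb gene. Both H3K4 marks were above the fold at 5.58% of genes and below it at 4.88%. For H3K27me3, 4 of the 8 genes had at least 2000 bp covered in either genotype. Of these 4, Cebpa and Zfp423 were below the fold, beside 33.1% of genes so covered, and Ebf1 was above it, beside 28.7%. Zfp423 was below the fold in all 3 marks, as were 2.07% of the genes with enough of each mark. The median ratio of Asxl1-/- over wild type for the 8 genes was 1.22 for H3K4me2 and 1.06 for H3K4me3. Over all genes with at least 2000 bp covered in both genotypes it was 0.948 and 1.1. Among start islands kept in both genotypes, Cebpa and Ebf1 were at least 1.5 times as wide in Asxl1-/- for H3K4me2 (10.8% of genes), and Cebpa, Ebf1 and Klf15 for H3K4me3 (19.5%). Start islands narrower by the same fold were found at 0 of the 8 for H3K4me2 and for H3K4me3, beside 14.4% and 5.23% of genes. The H3K27me3 start islands of Zfp423 and Klf15 passed the fold neither way, beside 19.8% of genes wider and 29.9% narrower.

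**Figure D1:**
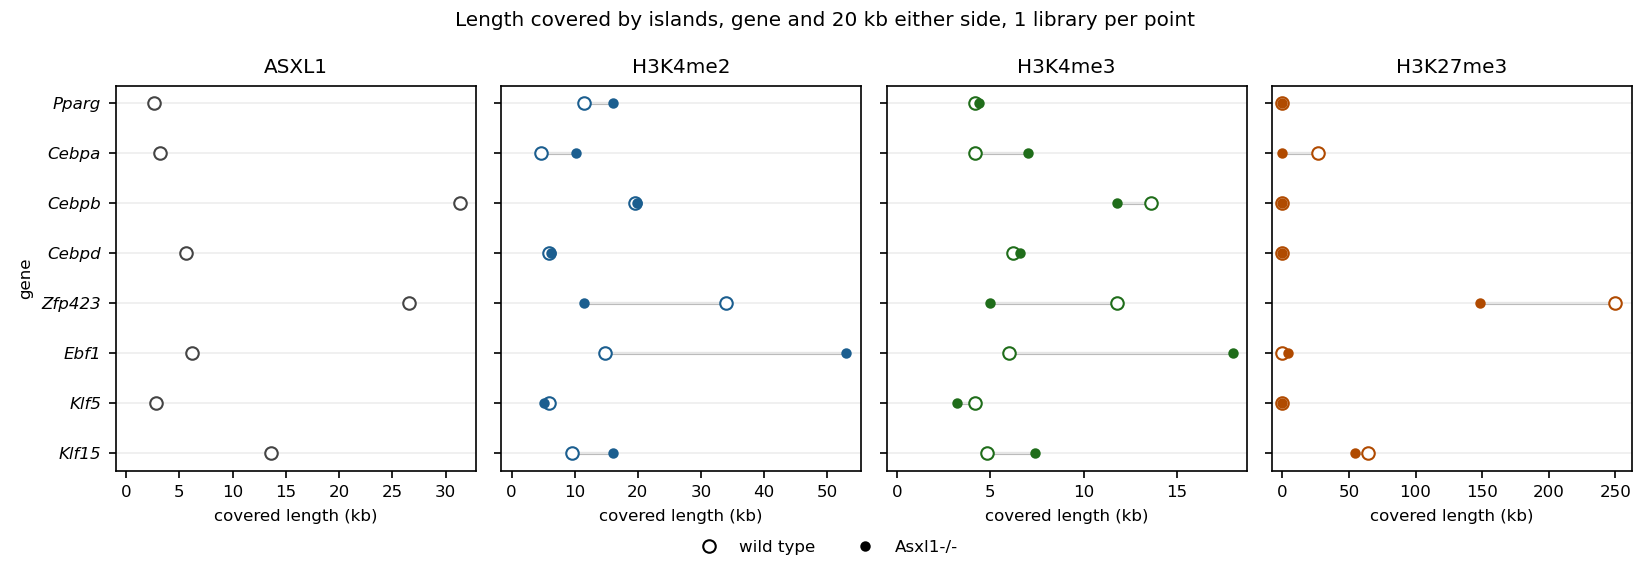
Length in kb covered by islands over each gene and 20 kb either side (x axis), by gene (y axis), with 1 library per point, for ASXL1 in wild-type cells and for 3 marks in wild type (open) and Asxl1-/- (filled). Ebf1 lies furthest to the right for H3K4me2 and H3K4me3 in Asxl1-/-, at 53.0 and 18.0 kb, and Zfp423 goes the other way in all 3 marks.

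Of the early factors, Cebpb had wide H3K4 islands that were split differently in the 2 genotypes while the summed length was close, and Cebpd had islands nearer to the usual width. Cebpb (chromosome 2, 167688915 to 167690432) is a gene of 1.52 kb, and its ASXL1 island of 31.4 kb covered it with long stretches on both sides. Of all ASXL1 islands 0.695% were as wide. H3K4me2 covered 19.6 kb of the window in wild-type cells and 19.8 kb in Asxl1-/-, and H3K4me3 covered 13.6 and 11.8 kb. In wild type the H3K4me3 was a single island of 13.6 kb, a width that 1.86% of genes with the mark reach. In Asxl1-/- the same stretch was called as an island of 9.6 kb and another of 2.2 kb, with 11.8 kb in common. The H3K4me2 islands went the other way, from 12.4 and 3.4 kb side by side in wild type to a single island of 17.4 kb in Asxl1-/-. The lncRNA gene A530013C23Rik starts within the same islands, 1.84 kb above the lower end of Cebpb, so these islands are not those of Cebpb alone. The nearest H3K27me3 island was 298 kb away in wild-type cells and 209 kb away in Asxl1-/-.

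Cebpd (chromosome 16, 15887286 to 15889545) lay inside a single island of each H3K4 mark. H3K4me2 spanned 6.0 kb in wild-type cells and 6.2 kb in Asxl1-/-, H3K4me3 spanned 6.2 and 6.6 kb, and ASXL1 spanned 5.6 kb. Of genes with H3K4me2 at the start in wild type 42.4% had an island as wide. For each mark 6.0 kb was covered in both genotypes. Spidr, a protein-coding gene, has an end inside the same islands. No H3K27me3 island lay within 20 kb in either genotype.

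Pparg (chromosome 6, 115360879 to 115490404) has 3 annotated starts on the + strand, and only the first stretch of the gene was marked as a promoter. The protein has a widely made form from the upstream promoters and a form restricted to fat cells from a promoter further into the gene, and the promoter table does not say which transcript a start belongs to. At the first and second starts, 0.265 and 1.47 kb into the gene, the H3K4me3 island was 4.2 kb wide in wild-type cells and 4.4 kb in Asxl1-/-, with 4.0 kb in common. The ASXL1 island there was 2.6 kb wide, which is narrower than the median of 4.8 kb over genes with ASXL1 at a start. The third start, 61.2 kb into the gene, had no H3K4me2, H3K4me3, H3K27me3 or ASXL1 within 1000 bp in either genotype. H3K4me2 alone was found deeper in the gene. In wild type it lay in islands of 1.4 kb at 21.3 kb and of 3.6 kb at 118 kb from the 5′ end, and in 1 of 3.0 kb just past the gene. All 4 wild-type H3K4me2 islands overlapped an island of Asxl1-/-. Asxl1-/- had 2 more, of 2.4 kb at chr6:115462400-115464799 and of 2.0 kb at chr6:115476200-115478199, which overlapped none of wild type. H3K4me2 then covered 11.4 kb in wild-type cells and 16.0 kb in Asxl1-/-, a ratio of 1.40 that stayed under the fold of 1.5. Over the gene without its flanks, or after division by chromosome 6, where the ratio was 0.906, Pparg passed the fold. With a flank of 50 kb the sign turned, and Asxl1-/- minus wild type was -1.6 kb, against 4.6 kb with 20 kb. H3K27me3 came no nearer than 98.8 kb in wild-type cells and 101 kb in Asxl1-/-.

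Klf5 (chromosome 14, 99298691 to 99313412) was marked at 1 end. There the H3K4me2 island was 5.0 kb wide in wild-type cells and 4.8 kb in Asxl1-/-, and the H3K4me3 island 4.2 and 3.2 kb, all of the latter inside the former. ASXL1 covered 2.8 kb at the same end. The ratio of covered H3K4me3 length was 0.762. On chromosome 14 as a whole Asxl1-/- covered 1.27 times the wild-type length of H3K4me3, so Klf5 was low for its chromosome, and after division by the chromosome it passed the fold for shorter length. The nearest H3K27me3 island above Klf5 was 971 kb away in wild-type cells and 27.2 kb away in Asxl1-/-, on a chromosome where Asxl1-/- covered 2.04 times the wild-type length of this mark.

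**Figure D2:**
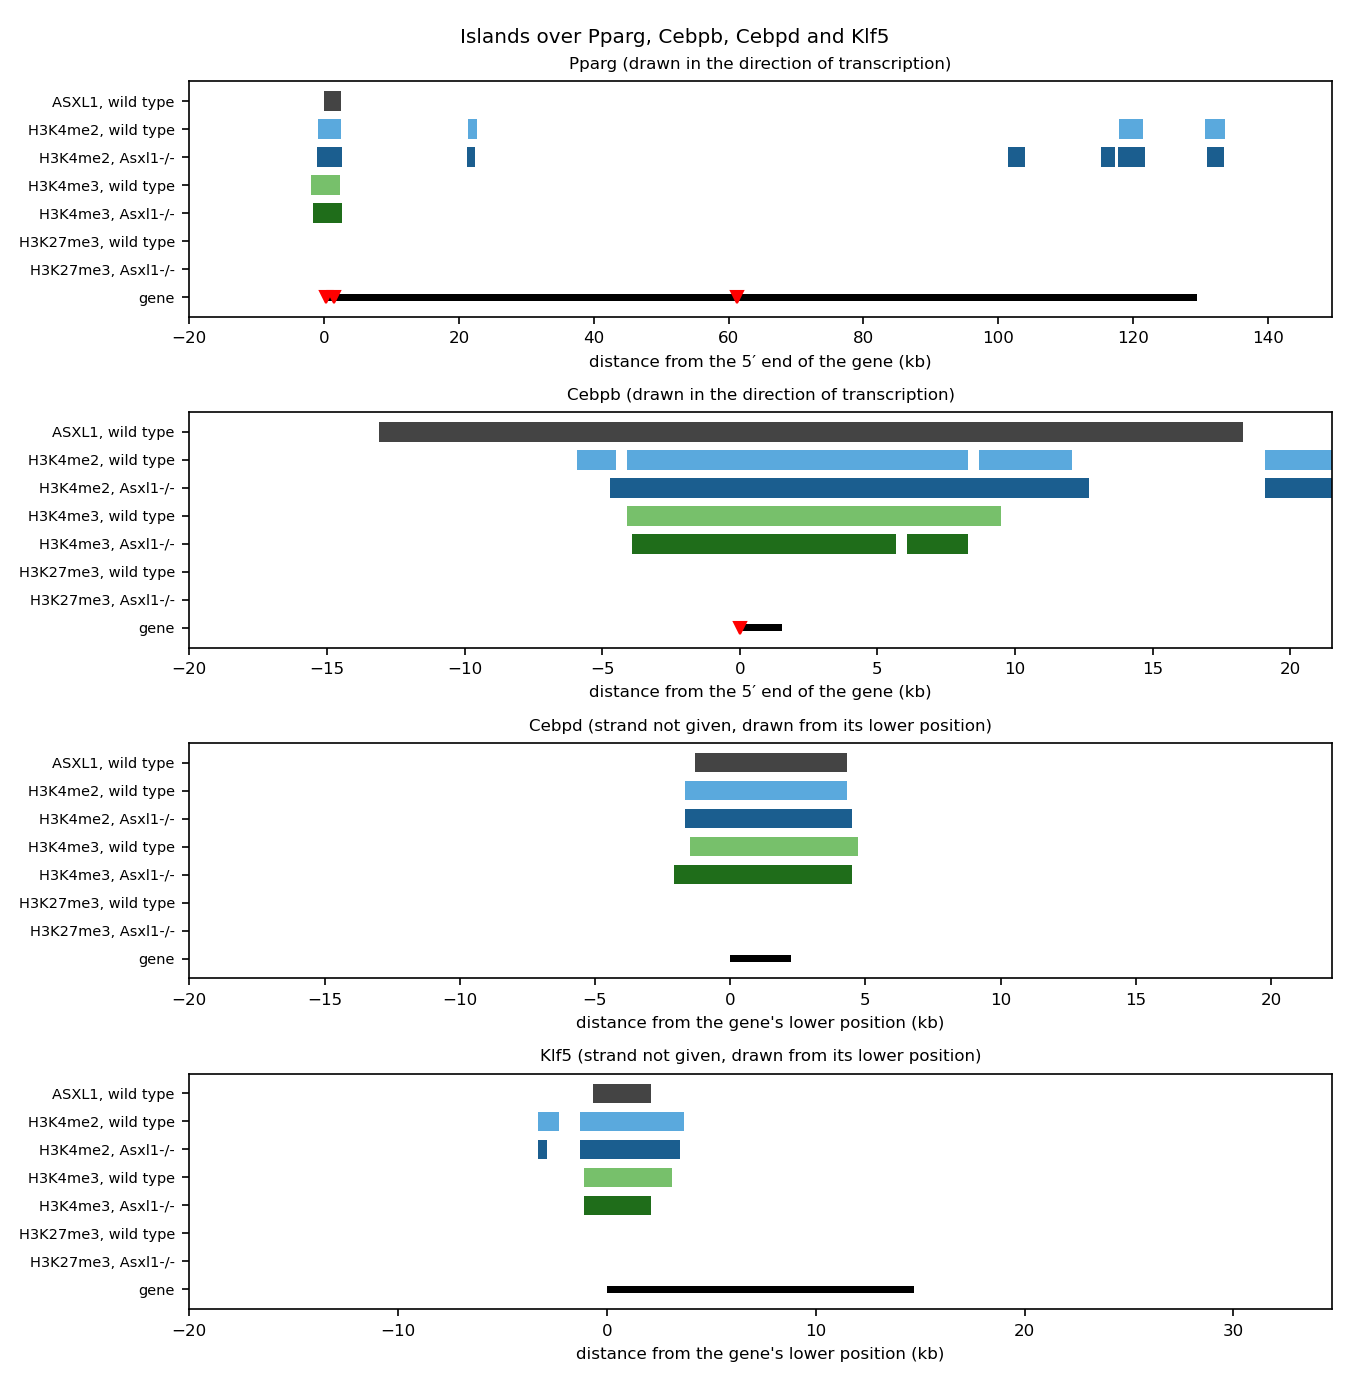
Islands (bars) of the 7 libraries (rows) over Pparg, Cebpb, Cebpd and Klf5 (black bars, with red triangles at annotated starts), by distance in kb from the gene's 5′ end, or from its lower position where no strand was found. The H3K27me3 rows are empty in all 4 maps, and Pparg shows the 2 added H3K4me2 islands of Asxl1-/- at 102 and 115 kb.

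Cebpa (chromosome 7, 35119293 to 35121928, + strand) carried H3K4me3 and H3K27me3 together in wild-type cells and H3K4me3 alone in Asxl1-/-. In wild type 4 H3K27me3 islands of 3.6, 3.6, 11.2 and 8.2 kb covered 26.6 kb of the 42.6 kb window. In Asxl1-/- there was none in the window. The 11.2 kb island, at chr7:35115200-35126399, had spanned the whole gene and the whole wild-type H3K4me3 island of 4.2 kb. The nearest H3K27me3 island in Asxl1-/- was 23.3 kb above the gene and 208 kb below it. Such a complete absence was seen at 4.91% of the genes with 20 kb or more of H3K27me3 in wild type. On chromosome 7 Asxl1-/- covered 0.736 of the wild-type H3K27me3 length, and in the 5 Mb either side of the window 0.861, or 735 against 854 kb. The part of this regional difference in the result was not tested.

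The H3K4 islands of Cebpa were wider in Asxl1-/-. H3K4me3 spanned 4.2 kb in wild-type cells and 7.0 kb in Asxl1-/-, and H3K4me2 spanned 4.6 and 8.6 kb. In each case the Asxl1-/- island held the whole wild-type island and reached past it at both ends. Both marks thus reached from upstream of the start to past the end of this short gene in Asxl1-/-. A further H3K4me2 island of 1.6 kb, at chr7:35138000-35139599, appeared in Asxl1-/- alone. It lay in a stretch that H3K27me3 covered in wild type. ASXL1 had sat over the start in wild type in an island of 3.2 kb, all of it under H3K4me2, H3K4me3 and H3K27me3. The lncRNA gene Gm51475, in the same window, had H3K27me3 at its start in wild type and none in Asxl1-/-.

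Klf15 (chromosome 6, 90461043 to 90491803, + strand) also had both marks at its start, and kept both. H3K27me3 covered 64.6 kb of the 70.8 kb window in wild-type cells and 54.8 kb in Asxl1-/-, a ratio of 0.848. The wild-type domain of 47.4 kb, from 15.8 kb before the gene to past its far end, was called in Asxl1-/- as islands of 3.8, 2.6 and 38.8 kb. H3K4me3 inside it spanned 4.8 kb in wild-type cells and 7.4 kb in Asxl1-/-, all of it overlapped by H3K27me3 in both. H3K4me2 covered 9.6 and 16.0 kb, with 2 islands of 1.2 and 2.2 kb found in Asxl1-/- alone. The ASXL1 island of 13.6 kb was wide, a width that 7.06% of ASXL1 islands reach, and lay wholly under H3K27me3. Cebpa and Klf15 thus both had wider H3K4me3 at the start in Asxl1-/-, and differed in whether H3K27me3 was still called there. For both genes the ratio of H3K4me3 length, 1.67 and 1.54, was under 1.5 after division by the 5 Mb either side. H3K4me3 islands were wider in the Asxl1-/- list as a whole, with a median of 4.2 kb against 3.4 kb in wild type. Over genes that kept the mark at a start the median ratio of start widths was 1.11, and 19.5% reached 1.5.

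**Figure D3:**
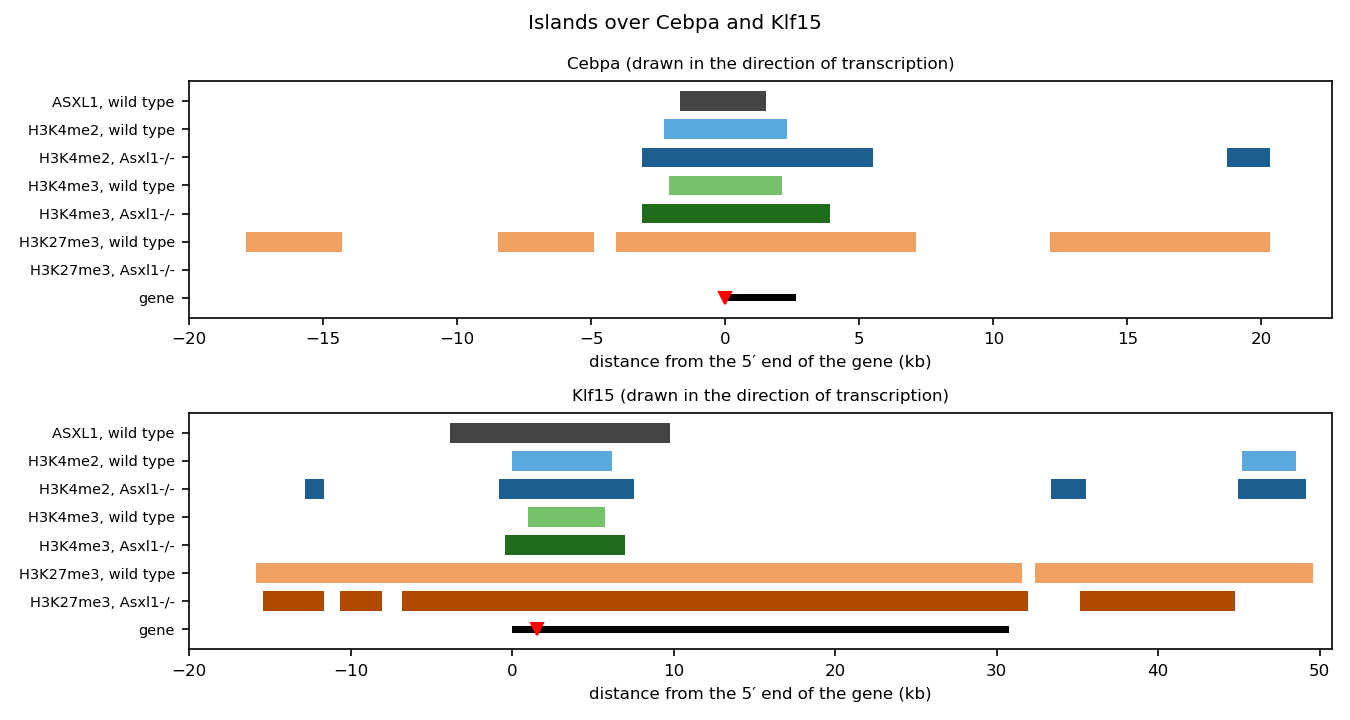
Islands (bars) of the 7 libraries (rows) over Cebpa and Klf15 (black bars, with red triangles at annotated starts), by distance in kb from the 5′ end of the gene. The H3K27me3 row of Asxl1-/- is empty at Cebpa, where wild type has 26.6 kb, and filled at Klf15, where 54.8 kb is left of 64.6 kb.

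Zfp423 (chromosome 8, 87661810 to 87962053, - strand) is 300.2 kb long and kept the marks at its first start. Most H3K4 islands further inside the gene were missing in Asxl1-/-. At the first start, 2.46 kb into the gene, H3K4me2 spanned 6.8 kb in both genotypes and H3K4me3 spanned 6.2 kb in wild-type cells and 5.0 kb in Asxl1-/-. Over the whole window H3K4me2 covered 34.0 kb in wild-type cells and 11.4 kb in Asxl1-/-. It was in 11 islands in wild-type cells and in 4 in Asxl1-/-, and 8 of the 11 overlapped none of Asxl1-/-. H3K4me3 covered 11.8 and 5.0 kb, in 5 islands and 1, and 4 of the 5 overlapped none. Ratios as low as its 0.335 for H3K4me2 and 0.424 for H3K4me3 were found at 1.21% and 0.907% of genes. Among genes of 200 kb or more, a comparison added after seeing the data, the shares were 4.99% and 2.86%. These shares are over genes with at least 2000 bp covered in both genotypes, 15154 for H3K4me2 and 13891 for H3K4me3. Genes with less in either genotype, complete losses and gains among them, were left out. On chromosome 8 as a whole the ratios were 0.818 and 0.938, and in the 5 Mb either side they were 0.791 and 0.954.

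The second annotated start of Zfp423, 158 kb into the gene, had an H3K4me2 island of 1.8 kb in wild-type cells and none in Asxl1-/-. ASXL1 lay in 4 islands over the gene, more than at any other of the 8 genes. The island at the start was 6.6 kb wide and held 5.6 kb of H3K4me2 in wild-type cells and 6.6 kb in Asxl1-/-. The 3 islands inside the gene held 3.6, 2.8 and 4.8 kb of H3K4me2 in wild type, in order from the 5′ end, and 0, 0 and 1.8 kb in Asxl1-/-. The first of these, at chr8:87913200-87919799, kept H3K27me3, with 6.4 and 6.6 kb. The second, at chr8:87786200-87794599, held 2.0 kb of H3K27me3 in wild-type cells and 0 in Asxl1-/-, and the third held 5.0 kb in both. Over the genome, 25.3% of ASXL1 islands away from gene starts that held H3K4me2 in wild type held none in Asxl1-/-, against 0.978% of those at starts. The third of the 3 also held 2.0 kb of H3K4me3 in wild-type cells and 0 in Asxl1-/-. Of ASXL1 islands away from starts with H3K4me3 in wild type 46.6% held none in Asxl1-/-, against 1.86% at starts. Of the 8 missing H3K4me2 islands, those at chr8:87790000-87792399, chr8:87794200-87796399 and chr8:87913200-87916799 overlapped ASXL1, and the other 5 did not. Over the genome 28% of wild-type H3K4me2 islands with no counterpart overlapped ASXL1. For H3K4me3 it was 1 of the 4 at Zfp423, and 57.6% over the genome.

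H3K27me3 over Zfp423 was broad in both genotypes and covered less in Asxl1-/-, 148.4 kb against 250.04 kb of a 340.2 kb window. The domain at the start, of 32.4 kb in wild-type cells and 27.8 kb in Asxl1-/-, was in place in both, and 26.6 kb of the latter was covered in wild type. The widest wild-type domain, of 55.2 kb, was called over 31.8 kb in Asxl1-/-. Islands of 21.4, 5.4, 9.8 and 23.6 kb were missing altogether. An island of 4.8 kb, at chr8:87936400-87941199, was found in Asxl1-/- alone, and it lay over the 1.0 kb H3K4me3 island of wild type that was missing there. The ratio of 0.593 stood beside 0.687 for chromosome 8 and 0.914 for the 5 Mb either side, and after division by the chromosome it no longer passed the fold. The lncRNA genes 1700096P03Rik and Gm42032 lie in the same window and had H3K27me3 in both genotypes, and at Gm34412, inside Zfp423, an H3K4me2 island of wild type was missing in Asxl1-/-.

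Ebf1 (chromosome 11, 44618100 to 45008096, + strand) is 390.0 kb long and showed the opposite of Zfp423 for the H3K4 marks. Islands of these marks covered more in Asxl1-/-, both at the start and further into the gene. The H3K4me3 island over its 2 starts was 5.2 kb wide in wild-type cells and 10.4 kb in Asxl1-/-, and the H3K4me2 island 5.4 and 14.8 kb. The wild-type islands lay wholly inside those of Asxl1-/-, whose added part was mostly into the gene. Over the window H3K4me2 covered 14.8 kb in 8 islands in wild-type cells and 53.0 kb in 16 islands in Asxl1-/-. H3K4me3 covered 6.0 kb in 2 islands and 18.0 kb in 3. Ratios as high as its 3.58 for H3K4me2 and 3.0 for H3K4me3 were found at 0.409% and 0.511% of genes. Among genes of 200 kb or more, a comparison also added after seeing the data, the shares were 2.16% and 2.54%. As at Zfp423, these shares are over genes with at least 2000 bp covered in both genotypes.

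Of the 16 H3K4me2 islands of Asxl1-/- at Ebf1, 10 overlapped none of wild type, and all 10 lay inside the gene. They were from 0.8 to 5.6 kb wide and ran from 46.1 to 344 kb from the 5′ end. The widest, at chr11:44681400-44686999, was the 1 that also had H3K4me3, in an island of 3.6 kb that overlapped no ASXL1 either. Of such H3K4me3 islands 21% over the genome did. None of the 10 overlapped an ASXL1 island of wild type, and over the genome 5.95% of H3K4me2 islands found in Asxl1-/- alone did. ASXL1 at Ebf1 lay only at the start, in an island of 6.2 kb. In wild type 2 narrow H3K4me2 islands, of 1.2 and 0.6 kb, were missing in Asxl1-/-. The surroundings were also higher in Asxl1-/-. Chromosome 11 as a whole stood at 1.13 for H3K4me2 and 1.28 for H3K4me3, and the 5 Mb either side of Ebf1 at 1.33 and 1.38, from 262 to 349 kb and from 148 to 205 kb. Ebf1 stayed above the fold for both H3K4 marks after division by either. H3K27me3 was absent from the gene in both genotypes. An island of 4.4 kb, 14.9 kb past the gene, was found in Asxl1-/- alone, where the 5 Mb either side held 2.23 times the wild-type length of this mark. With no H3K27me3 in the wild-type window, Ebf1 entered the count above for this mark through Asxl1-/- alone.

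**Figure D4:**
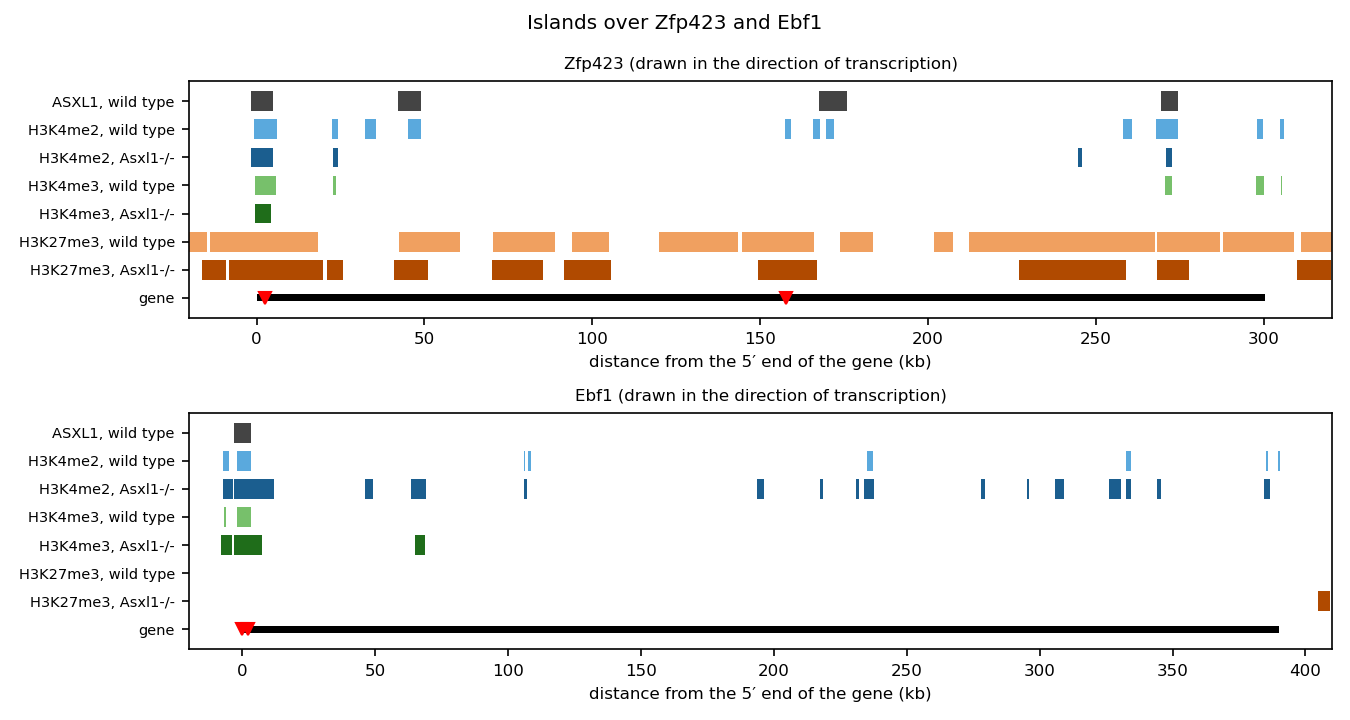
Islands (bars) of the 7 libraries (rows) over Zfp423 and Ebf1 (black bars, with red triangles at annotated starts), by distance in kb from the 5′ end of the gene. Between the genotypes the H3K4me2 row goes from 11 islands to 4 at Zfp423 and from 8 to 16 at Ebf1.

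Counted over all 8 windows, 23 of the 33 wild-type H3K4me2 islands overlapped an Asxl1-/- island, which is 69.7% (exact Clopper-Pearson 95% interval 51.3 to 84.4, counting error only, and islands of 1 gene are not independent), beside 72.7% of all wild-type H3K4me2 islands. Of the 37 Asxl1-/- islands 21 overlapped wild type, or 56.8% (39.5 to 72.9), while 78.4% of all Asxl1-/- H3K4me2 islands did. Of the 16 that did not, 10 were those of Ebf1, so most came from 1 gene. For H3K4me3, 9 of 13 wild-type islands were shared, or 69.2% beside 79.8% of all, and the 4 unshared islands were all at Zfp423. In Asxl1-/- 10 of 11 were shared, or 90.9% beside 91.5% of all, and the 1 unshared island was at Ebf1. For H3K27me3, 11 of 19 wild-type islands were shared, or 57.9% beside 64.3% of all, and the 8 unshared ones were 4 at Cebpa and 4 at Zfp423. In Asxl1-/- 13 of 15 were shared, or 86.7% (59.5 to 98.3) beside 59.8% of all, and the 2 unshared ones were 1 at Ebf1 and 1 at Zfp423.

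**Figure D5:**
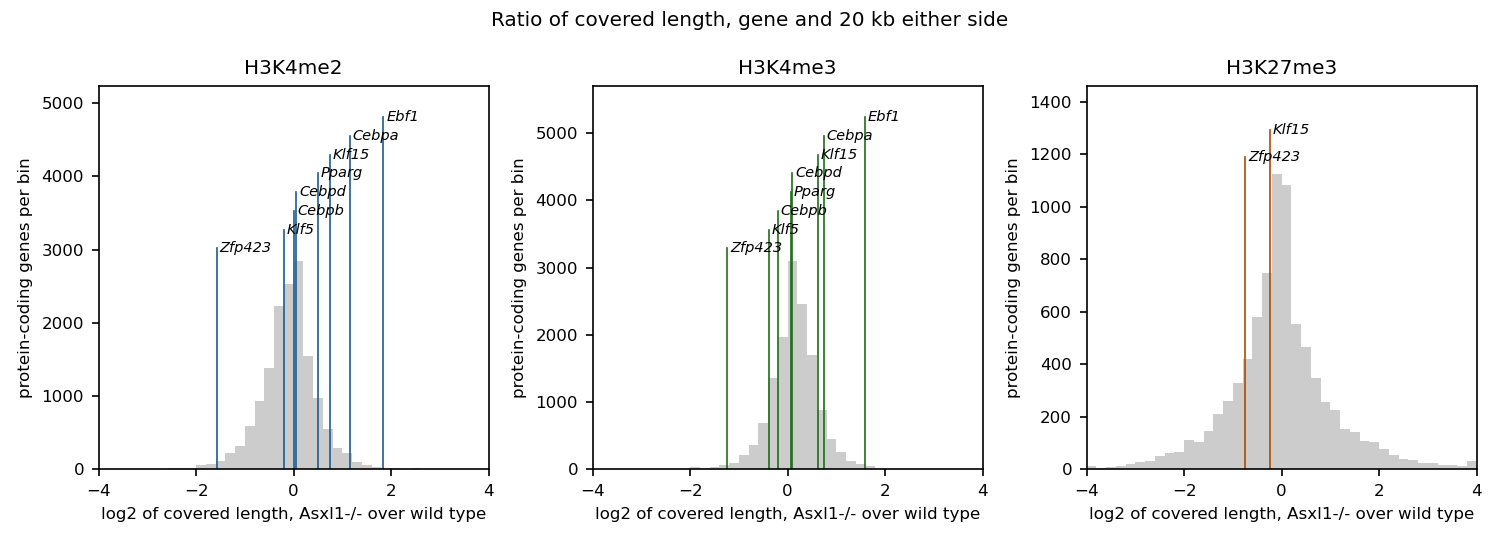
Histograms of the log2 ratio of covered length, Asxl1-/- over wild type (x axis), over protein-coding genes (y axis, number per bin) with at least 2000 bp covered in both genotypes, values past 4 in the end bins, and lines at the 8 genes where they qualify. Ebf1 and Zfp423 lie in the tails for H3K4me2 and H3K4me3, while Cebpb and Cebpd lie near the middle, and Cebpa is not shown for H3K27me3, which was at 0 in Asxl1-/-.

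Other genes of the pathway were read from 3 lists by the same rule at gene starts. Of 21 other factors that promote fat cell formation, all 17 with H3K4me3 in wild type kept it, and Nr1h3, which codes for the sterol receptor LXR-alpha, gained an island of 2.2 kb. H3K27me3 was lost at 4 of the 9 that had it, Ebf2, Nr1h3, Nfia and Ppargc1a, and gained at Stat5a. The island lost at Ebf2, the relative of Ebf1 that marks brown and beige preadipocytes, was 9.2 kb wide, and that at Nr1h3 10.2 kb. Of 20 factors that restrain fat cell formation, 18 of the 19 with H3K4me3 kept it. Dlk1, the preadipocyte surface inhibitor also called Pref-1, lost an island of 2.8 kb. H3K27me3 was lost at 3 of 7, Foxo1, Wnt10b and Klf2, with islands of 20.6, 4.8 and 3.4 kb. Over gene and flanks none was left at Foxo1 and Klf2, while at Wnt10b 12.6 kb was covered in Asxl1-/- and 18.2 kb in wild type. As for the 8 factors, the shares of starts that lost H3K27me3 stand beside the 25.6% of all genes with it that did. Of genes without it 6.04% gained it. For H3K4me3 the shares were 4.14% lost and 4.66% gained.

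Genes that these factors switch on in fat cells were marked at about as many starts as not. Of 16 such genes 8 had H3K4me3 in wild-type cells and 9 in Asxl1-/-, and 6 had ASXL1. Over all protein-coding genes the shares were 59.3%, 58.8% and 50%. Adipoq, Lep, Cidec, Pck1, Cd36, Retn and Plin1 had no H3K4me3 in either genotype, while Fabp4, Lpl, Slc2a4, Fasn and Scd1 had it in both. Cfd, which codes for the complement factor adipsin, gained H3K4me3 in an island of 11.4 kb and lost an H3K27me3 island of 6.6 kb. H3K27me3 at the start was also lost at Plin1 (14.6 kb) and Lpl (5.6 kb), and gained at Cidec (6.0 kb) and Dgat2 (3.6 kb). The list thus had 3 losses among 7 marked genes and 2 gains. Over gene and flanks H3K27me3 covered 2.8 kb at Plin1 and 0 at Lpl in Asxl1-/-, against 21.3 and 11.6 kb in wild type. At Cidec and Dgat2 it already covered 3.96 and 11.2 kb in wild type, and 13.2 and 44.7 kb in Asxl1-/-. Of all genes with H3K27me3 at a start 25.6% lost it, and 6.04% of those without it gained it. Retn lost H3K4me2 at the start, in an island of 4.2 kb, and over gene and flanks 7.2 kb was left of 14.8 kb.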

How the data were processed

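Reads were aligned to mm10 by BWA, and SICER 1.1 then called the islands, as recorded in the submitters' processing notes. For calling parameters and the control no source used here gives a value. The 7 deposited lists hold positions alone, all on a grid of 200 bp, made per library. The smallest gap was 400 bp for H3K4me2 and H3K4me3 and 800 bp for ASXL1 and H3K27me3. The input library was not analysed here. Positions are printed as the authors' files give them, with both ends counted in widths. Genes came from a RefSeq table of GRCm38.p6, which has the coordinates of mm10, and starts from the RefSeq promoter table (17274 of 21631 protein-coding genes, and either gene end for the other 4357). A gene with several starts was marked when any start had an island within 1000 bp. Exons and introns could not be assigned.

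Covered length was summed over the gene and 20 kb either side. It was called shorter or longer in Asxl1-/- at a fold of 1.5, where at least 2000 bp was covered in either genotype. Islands were shared when 1 bp overlapped. No test between genotypes was made, since each group is 1 library, and shares over all protein-coding genes are given instead. The 8 genes and the gene lists were chosen with earlier results of these data known. All 8 are named, and genes of other lists where a mark at the start differed (the rule was the 10 widest a mark, and all are named), and neighbours where an island reached their start. Genes of the marker and target lists that kept or lacked a mark are named outside that rule, after their values were seen. The code was tested on the wild-type mark lists after islands at randomly picked gene starts were removed, and covered length was checked base by base. Alternatives covered the fold, flank, start window, island width, list length, overlap and scaling. Python 3.11.15, numpy 2.4.6, pandas 2.3.3, scipy 1.17.1 and matplotlib 3.10.9 were used.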

Additional observations from a re-analysis of the deposited data

How the results depend on the processing

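No paired analysis was possible because each group is 1 library. The counts of genes marked at the start stayed within 1.5 times under the 5 alternatives run for them. The shares of shared islands stayed inside their intervals. These intervals are wide, from 38.6 to 90.9% for the 13 wild-type H3K4me3 islands, so this is a weak check. No covered length that passed the fold took the opposite sign. Among those that did not pass it, H3K4me2 at Pparg, Cebpb and Cebpd and H3K4me3 at Cebpb did so with a flank of 50 kb. The count of genes with longer H3K4me3 in Asxl1-/-, 3 as reported, was 1 (Ebf1) with a fold of 2, with no flank, with a flank of 50 kb and after division by the 5 Mb either side, a scaling chosen after seeing the data. The count with shorter H3K4me3 was 2 after either division, since Klf5 joined Zfp423. The count with shorter H3K27me3 was 1 (Cebpa) with a fold of 2 or after division by the chromosome. The count with longer H3K27me3 was 0 with no flank or a flank of 10 kb and 2 with a flank of 50 kb, where Klf5 joined Ebf1. Counts for H3K4me2 stayed within 1.5 times, but with no flank the genes with longer H3K4me2 were Pparg and Ebf1, without Cebpa and Klf15. With no flank Cebpa could not pass for either H3K4 mark, since wild type already covered most of the gene. Depth is unknown for all lists, so a missing island may be a weaker one.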
